A study of Mus musculus with 8 samples.

Results

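Processed pseudogenes were the 143 genes, of 13996 with FPKM values, whose annotated class was processed_pseudogene, and the class alone chose them. FPKM counts fragments relative to the exon length of the gene and to the depth of the library. The cortex was taken from male C57BL/6 mice at 16 weeks of age, after 8 weeks on either a normal diet or a diet with 60% fat by weight (HFD), which began at 8 weeks of age. Each diet had 4 mice with 1 library of rRNA-depleted total RNA per mouse, and both diets shared the strain, the sex and the age. The diet as a whole differed between the groups, so fat cannot be told apart from the other components that a change of diet alters. Bulk tissue was measured, so more or fewer cells of a type and more or less RNA per cell cannot be told apart.

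A processed pseudogene is a copy of a messenger RNA that was reverse transcribed and inserted elsewhere in the genome, without introns and usually without its promoter. Messenger RNAs that are abundant in the germline, such as those of ribosomal proteins, have left many such copies. A copy can be transcribed from a neighbouring promoter, or as a stretch of the unspliced RNA of a gene whose intron it lies in, and rRNA-depleted total RNA retains unspliced RNA. Here the gene whose messenger RNA was copied is called the parent, and a gene with the copy in an intron on the same strand is called the host.

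All 143 carried the same class in the GENCODE M21 annotation (GRCm38), from which symbols, positions and transcript sequences were taken. A single exon was annotated for 137 of them, the length lay between 196 and 2704 bases, and the median length was 549 bases. Alignment to the transcripts of protein-coding genes gave a parent for 141 pseudogenes. For 128 of these 1 gene matched best, and for 13 more than 1 gene matched about equally well. Of the 17 symbols that end in -ps and a number or in -ps, 14 named the parent that the alignment found. The exceptions were Fth-ps2, which matched Fth1, Hist3h2bb-ps, which matched Hist3h2ba, and Vamp7-ps, for which no parent was found. Identity to the parent ranged from 69.2% to 100%, with a median of 93.1%, and 135 of the parents' transcripts had more than 1 exon. FPKM values of the parent were available for 132 pseudogenes, which came from 117 parent genes.

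Sequences of 6 pseudogenes that the results below turn on are shown beside the coding sequence of their parents, over 90 bases of each, 5′ to 3′ on the strand of the pseudogene. Capitals mark the bases that differ within each pair. The stretch of Gm12806 (chr4:110510122-110510211, plus strand) differed from Rpl37 at 11 bases, that of Gm29214 (chr1:25615308-25615397, minus strand) differed from Rpl9 at 16 bases, and that of Gm4660 (chr16:60398232-60398321, minus strand) differed from Atp5g1 at 6 bases. These lie in introns of other genes, and their levels rose on the high fat diet.
Gm12806: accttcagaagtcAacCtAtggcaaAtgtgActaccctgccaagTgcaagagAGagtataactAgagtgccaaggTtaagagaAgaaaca
Rpl37: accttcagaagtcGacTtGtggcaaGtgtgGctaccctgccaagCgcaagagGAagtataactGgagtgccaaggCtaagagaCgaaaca
Gm29214: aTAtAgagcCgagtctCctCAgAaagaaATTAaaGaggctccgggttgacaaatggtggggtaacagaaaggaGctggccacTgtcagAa
Rpl9: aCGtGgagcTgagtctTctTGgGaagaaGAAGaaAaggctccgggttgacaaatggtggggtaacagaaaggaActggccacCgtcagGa
Gm4660: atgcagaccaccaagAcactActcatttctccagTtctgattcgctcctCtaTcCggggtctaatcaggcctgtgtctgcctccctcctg
Atp5g1: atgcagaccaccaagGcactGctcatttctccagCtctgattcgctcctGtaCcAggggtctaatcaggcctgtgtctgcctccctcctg
Rps27a-ps1 (chr1:52522500-52522589, plus strand) differed from Rps27a at 3 bases, Gm7308 (chr6:127282420-127282509, minus strand) differed from Calm2 at 3 bases, and Tpt1-ps3 (chr6:99878245-99878334, minus strand) had 0 differences from Tpt1. These lie in no other gene. A read of 100 bases from this stretch of Tpt1-ps3 could come from either locus, whereas a read from the Gm29214 stretch carries many marks of its locus.
Rps27a-ps1: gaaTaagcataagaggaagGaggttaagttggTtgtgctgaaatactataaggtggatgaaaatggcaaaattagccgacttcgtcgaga
Rps27a: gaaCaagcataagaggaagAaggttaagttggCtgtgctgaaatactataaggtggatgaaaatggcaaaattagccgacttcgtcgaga
Gm7308: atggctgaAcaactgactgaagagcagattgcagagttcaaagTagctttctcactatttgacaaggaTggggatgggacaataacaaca
Calm2: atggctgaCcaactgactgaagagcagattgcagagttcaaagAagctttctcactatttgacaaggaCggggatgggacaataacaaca
Tpt1-ps3: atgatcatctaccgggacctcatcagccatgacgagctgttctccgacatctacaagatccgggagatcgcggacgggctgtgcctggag
Tpt1: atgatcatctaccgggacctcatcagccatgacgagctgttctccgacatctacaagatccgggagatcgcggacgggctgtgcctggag

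Most pseudogenes with measured levels lay inside the introns of other genes. Of the 143, 86 (60.1%) were in an intron on the same strand, against 1026 of 9940 (10.3%) processed pseudogenes of the whole annotation. No other gene overlapped 46 (32.2%), against 70.9% of the annotation. Of the remaining 11, 5 were in an intron on the opposite strand, 4 overlapped an exon on the same strand and 2 overlapped an exon on the opposite strand. The genes in the FPKM values had a mean of at least 1 FPKM, so this comparison sets pseudogenes with a measured level beside annotated ones of any level.

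The hosts were protein-coding for 82 of the 86. Il1rapl1, a synaptic adhesion gene, held 3 pseudogenes, and Pcdh9 (a protocadherin), Tanc2 (a postsynaptic scaffold) and Mbd5 (a methyl-CpG-binding domain gene) held 2 each. The hosts had a median span of 183600 bases, against 26110 bases for protein-coding genes of the tested set, and the introns with a pseudogene had a median length of 33700 bases. A host with FPKM values was available for 84 of these pseudogenes, from 78 genes. Pseudogene and unspliced host RNA cannot be told apart by position and strand in these 86 loci.

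Levels of the pseudogenes were low. The mean over the 8 mice lay between 1.01 and 28.4 FPKM, with a median of 1.53 FPKM, and it was under 2 FPKM for 93 pseudogenes. The median was 1.51 FPKM in same-strand introns and 1.51 FPKM where no other gene overlapped. Each parent had a higher level per length than its pseudogene, between 1.73 and 953 times as high with a median of 49.3 times. Hosts had a median of 13.0 times the FPKM of the pseudogene in their intron, and 1 pseudogene, Gm13509 in Mbd5, exceeded its host. Values were rounded to 0.1 FPKM, a coarse step for a gene near 1 FPKM, and the number of reads behind them is unknown.

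The highest level belonged to Mpc1-ps (chr12:110858565-110858894), a copy of the mitochondrial pyruvate carrier gene Mpc1. It had 30.7, 37.7, 31.0 and 25.5 FPKM in the normal mice and 29.0, 25.8, 20.5 and 26.7 FPKM in the HFD mice, and the diets overlapped (adjusted p = 0.113). Gm13509 (chr2:49308155-49309462), a copy of the clathrin adaptor gene Ap2m1, had 16.7 to 19.2 FPKM on the normal diet and 15.6 to 18.9 FPKM on the high fat diet. Gm7964, Hist3h2bb-ps and Rps23-ps1 had means of 9.50, 11.2 and 10.9 FPKM. The other 4 of the 10 highest, Gm47340, Gm45380, Gm42584 and Gm35595, had means between 5.53 and 6.91 FPKM, and Vamp7-ps, described below, was among the 10.

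On the high fat diet 25 of the 143 pseudogenes were higher and 4 were lower at an adjusted p below 0.05, by limma on log2(FPKM + 0.1) over 13982 genes, and 114 passed in neither direction. Over all genes 17.7% were higher and 15.3% were lower, so the share of pseudogenes that were higher, 17.5%, was near that of all genes, and the share that were lower, 2.80%, was below it. With a change over 1.5-fold as a further condition, 23 pseudogenes (16.1%) were higher and 1 was lower, against 4.23% and 2.90% of all genes. Low genes pass that condition more often: of the genes with a mean of 1 to 2 FPKM, 10.1% were higher and 5.69% were lower by it, and of the 93 pseudogenes in that range 18.3% were higher and 1.08% were lower. Without the fold condition, 15.4% of the genes under 5 FPKM were higher and 9.46% were lower, against 23 and 2 of the 130 pseudogenes there. The count of 23 fell to 15 without HFD mouse 2 and was 17 to 27 without any other mouse. The median log2 fold change was 0.24 over the pseudogenes and 0.00 over all genes, and it was above 0 for 98 pseudogenes. An entry condition bears on these counts, because a gene needed a mean of at least 1 FPKM over the mice. The mean on the normal diet was under 1 FPKM for 21 pseudogenes, and 10 of the 25 that were higher were among them, so these passed the condition only through the high fat diet. Gm43582, Gm12806, Gm14740, Gm4705, Gm4660, Rps27a-ps1, Gm8850, 1700071K01Rik and Gm15681 belong to them, and that limit holds for their values below. The mean on the high fat diet was under 1 FPKM for 9 pseudogenes, among them 1 of the 4 that were lower.

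Some marker genes of other brain regions, of cell types and of blood also moved between the diets. The summed level of 7 cerebellar markers was 30.9 to 377 FPKM on the normal diet and 22.1 to 29.1 FPKM on the high fat diet, with 4 of the 7 lower. All 6 striatal markers (184 to 345 against 50.3 to 60.6 FPKM), all 6 oligodendrocyte markers (2019 to 3339 against 1396 to 1937 FPKM) and all 5 blood markers (239 to 480 against 199 to 247 FPKM) were lower. Of 6 markers of cortical projection neurons 5 were higher (265 to 404 against 450 to 533 FPKM). Of the other lists 1 of 4 thalamic, 2 of 5 astrocyte and 2 of 4 choroid plexus markers were lower, although HFD mouse 4 stood apart with a choroid plexus sum of 938 FPKM against 20.7 to 76.2 in the other HFD mice and 341 to 724 in the normal mice, and the 4 microglial markers summed to 61.7 to 73.5 against 67.5 to 71.1 FPKM. With the mean of the cerebellar list as a covariate 1 of the 23 pseudogenes higher by over 1.5-fold still passed, while the genes that passed over the whole set fell from 4626 to 384. All 23 log2 fold changes stayed above 0 in that fit, from 0.134 to 1.945, and 18 stayed over 1.5-fold. The 23 were picked in the same mice for a large increase, so a sign that stayed above 0 is no test. The cerebellar sums did not overlap between the diets, so the covariate partly followed the diet. The median of the 23 was 0.87 against 1.00 without the covariate, while the median SE rose from 0.23 to 0.36. Single pseudogenes described below moved further. Gm12369 fell to 0.134, Rps27a-ps1 to 0.291, Gm47340 to 0.303, Gm18875 to 0.509, Gm29214 to 0.751 and Gm14740 to 0.757. By contrast Gm18212 rose to 1.175 and Gm8850 to 1.945. The part of these regions and cell types in the results below was not tested beyond that fit.

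The pseudogenes were then divided by position. In same-strand introns the median log2 fold change was 0.47, it was above 0 for 68 of 86, and 21 were higher (24.4%), against 17.7% higher and 15.3% lower over all genes. None of them was lower by limma with adjustment, and 1 was lower at an unadjusted p below 0.05. Where no other gene overlapped the median was 0.01, with 4 of 46 higher (8.70%) and 3 lower (6.52%), both below those shares. The entry condition bears on the counts of both positions. Gm12806, Gm4705, Gm4660, Gm8850, 1700071K01Rik and Gm15681 are among the 21, and Gm43582, Gm14740 and Rps27a-ps1 are among the 4. Of the other 11 pseudogenes 0 were higher by limma with adjustment, and 1 was lower (9.09%), while at an unadjusted p below 0.05 the counts were 1 higher and 3 lower. The median level in each mouse gave the same order by diet in the introns: after centring on the mean of 8 mice it was -0.24 to -0.12 on the log2 scale in the normal mice and 0.06 to 0.35 in the HFD mice. Without an overlapping gene the ranges were -0.11 to 0.03 and -0.10 to 0.10, which overlap. These are descriptions of the positions, and the difference between them was not tested.

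**Figure D1:**
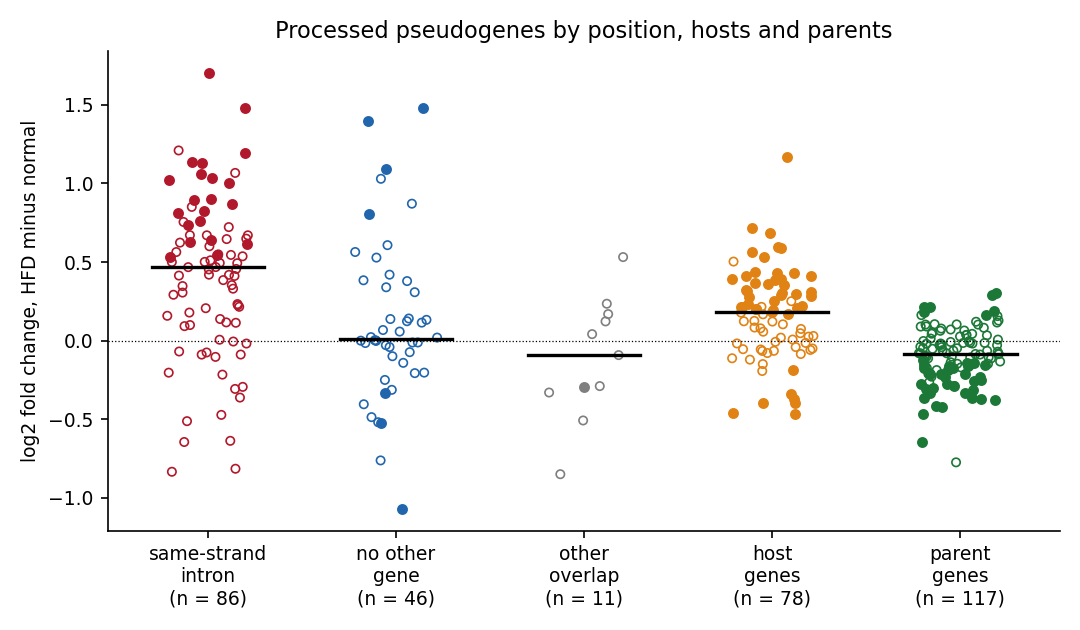
Log2 fold change (HFD minus normal, vertical axis) of each pseudogene by position, and of the host and parent genes. Filled points have an adjusted p below 0.05 by limma and bars are medians, which are 0.47 in same-strand introns, 0.01 without an overlapping gene, -0.09 for other overlaps, 0.18 for hosts and -0.09 for parents.

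Other classes of noncoding genes in the FPKM values are given for comparison. Of 60 tested genes of the class sense_intronic, which are transcripts inside an intron on the same strand, 19 (31.7%) were higher, against 17.7% of all genes, and 0 were lower by limma with adjustment or at an unadjusted p below 0.05, with a median log2 fold change of 0.37. Of 480 genes of the class TEC, unspliced transcripts that await experimental evidence, 245 were higher and 5 were lower, with a median of 0.49. Protein-coding genes had a median of -0.01, with 2062 higher and 2097 lower of 12519. The 34 transcribed processed pseudogenes, a class with independent evidence of transcription, had a median of 0.20, with 6 higher (17.6%), near the 17.7% of all genes, and 1 lower (2.94%), below the 15.3%.

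**Figure D2:**
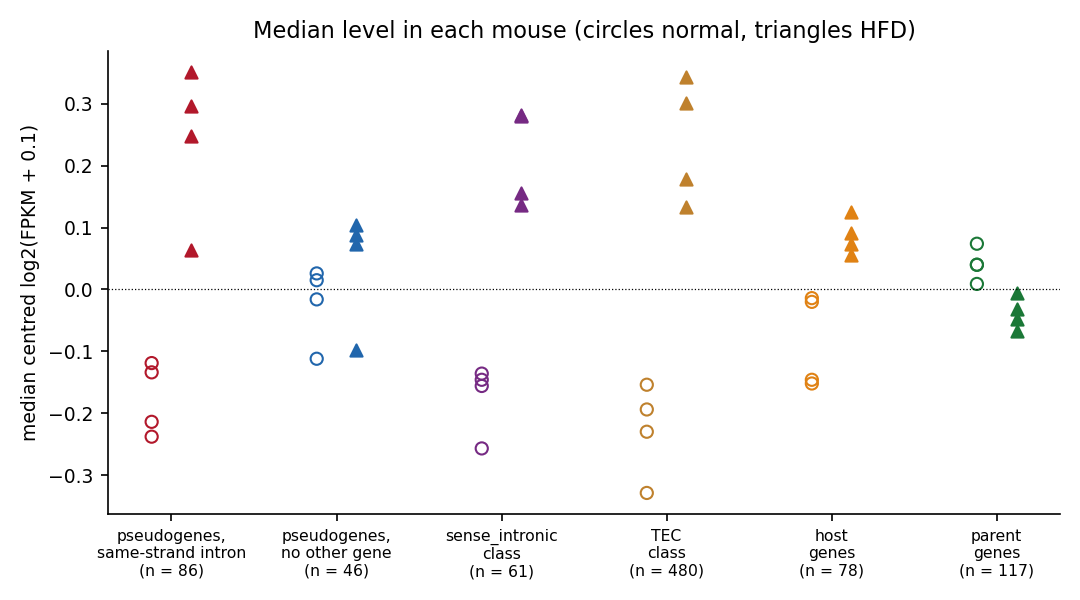
Median of log2(FPKM + 0.1), centred per gene on the mean of the 8 mice (vertical axis), in each mouse for 6 sets of genes, with circles for normal mice and triangles for HFD mice. The diets do not overlap in any set but the pseudogenes that lie in no other gene, and the parents are the only set of the 6 with lower values on the high fat diet.

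The largest increase was that of Gm28299 (chr1:124615191-124615596, minus strand), a copy of Btf3, which encodes a subunit of the nascent polypeptide-associated complex. Its level was 1.8, 2.6, 1.9 and 4.2 FPKM in the normal mice and 8.1, 8.3, 8.5 and 8.3 FPKM in the HFD mice. The 4 HFD mice lay close together, well above every normal mouse, with a log2 fold change of 1.70 ± 0.22 (SE, n = 4 per diet, adjusted p = 0.00111). Btf3 itself was 75.3 to 87.8 FPKM on the normal diet and 73.5 to 80.5 FPKM on the high fat diet, and it did not pass (log2 fold change -0.10, adjusted p = 0.181). The host, the long non-coding RNA Gm28928, rose from 2.6 to 5.0 FPKM to 7.9 to 10.5 FPKM, a log2 fold change of 1.17 (adjusted p = 0.00257). Pseudogene and host thus moved the same way, and the ratio of the pseudogene to its host overlapped between the diets (exact permutation p = 0.0571, two-sided).

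Pseudogenes of ribosomal protein genes formed the largest group of parents, with 40 of the 143. Of these 5 (12.5%) were higher, and 0 were lower by limma with adjustment, below the 17.7% and 15.3% of all genes, while at an unadjusted p below 0.05 the counts were 10 and 2, and the median log2 fold change was 0.23. Their 34 parent genes had a median of 0.04, with 4 higher (11.8%) and 3 lower (8.82%), also below those shares, and none of them changed by over 1.5-fold. Gm12806 (chr4:110510035-110510302, plus strand), the copy of the large-subunit protein gene Rpl37 shown above, had 0.5, 0.5, 0.6 and 0.8 FPKM on the normal diet and 2.2, 1.2, 2.3 and 1.8 FPKM on the high fat diet. It is one of those that met the entry condition through the high fat diet alone, and every HFD mouse exceeded every normal mouse (log2 fold change 1.48 ± 0.23, SE, n = 4 per diet, adjusted p = 0.00215). Rpl37 rose too, by much less, from 165.2 to 172.4 FPKM to 185.0 to 204.4 FPKM (log2 fold change 0.19, adjusted p = 0.0138). Its host Agbl4, a carboxypeptidase that acts on tubulin, rose from 6.4 to 8.2 FPKM to 13.5 FPKM at most, without overlap (log2 fold change 0.72, adjusted p = 0.00133).

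Gm29214 (chr1:25614946-25615515, minus strand), with Rpl9 as its parent, was in an intron of the adhesion receptor gene Adgrb3. Its FPKM was 1.2, 1.0, 0.8 and 1.2 on the normal diet and 2.3, 3.8, 2.0 and 1.9 on the high fat diet, without overlap (log2 fold change 1.14 ± 0.23, adjusted p = 0.00536). Rpl9, which encodes a protein of the large subunit, had 316 to 355 FPKM on the normal diet and 350 to 395 FPKM on the high fat diet (adjusted p = 0.111), and Adgrb3 had 36.0 to 39.7 and 39.1 to 42.6 FPKM (adjusted p = 0.0756). The ratios of Gm29214 to Rpl9 and to Adgrb3 did not overlap between diets (exact permutation p = 0.0286 each, the smallest that 70 assignments can give).

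Rps27a-ps1 (chr1:52522239-52522701, plus strand) was the ribosomal member that lay in no other gene and was higher. Its parent Rps27a encodes ubiquitin fused to a small-subunit protein. FPKM values of 1.0, 0.6, 0.5 and 1.2 on the normal diet stood against 1.4, 1.8, 2.6 and 1.5 on the high fat diet (log2 fold change 1.09 ± 0.28, adjusted p = 0.0173). That change shrank to 0.291 and did not pass (adjusted p = 0.736) once limma took the cerebellar list into account, so the increase of Rps27a-ps1 depended on that choice. Rps27a had 193 to 216 FPKM on the normal diet and 171 to 205 FPKM on the high fat diet, which overlap. The other ribosomal copies that were higher were Gm4705 (parent Rpl34, host Mtcl1, log2 fold change 1.20) and Gm47340 (parent Rpl23a, host Nav3, log2 fold change 0.64), and the diets overlapped in both. With the cerebellar list as a covariate Gm4705 had 1.575 (adjusted p = 0.249) and Gm47340 had 0.303 (adjusted p = 0.655), so neither passed. Mtcl1 did not pass (-0.15, adjusted p = 0.238), and Nav3 rose (0.41, adjusted p = 0.0207), although it had -0.046 with the cerebellar list as a covariate. A second copy of Rpl34, Gm13786 in Phf21a, had a log2 fold change of -0.83 and did not pass (adjusted p = 0.0895), and Rpl34 itself had 164 to 208 FPKM on the high fat diet and 181 to 194 FPKM on the normal diet. The log2 fold changes of the copies of Rpl34 thus had opposite signs, and only that of Gm4705 passed, whereas with quantile normalization Gm13786 passed (-0.83, adjusted p = 0.0483) and Gm4705 did not (1.20, adjusted p = 0.0716).

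**Figure D3:**
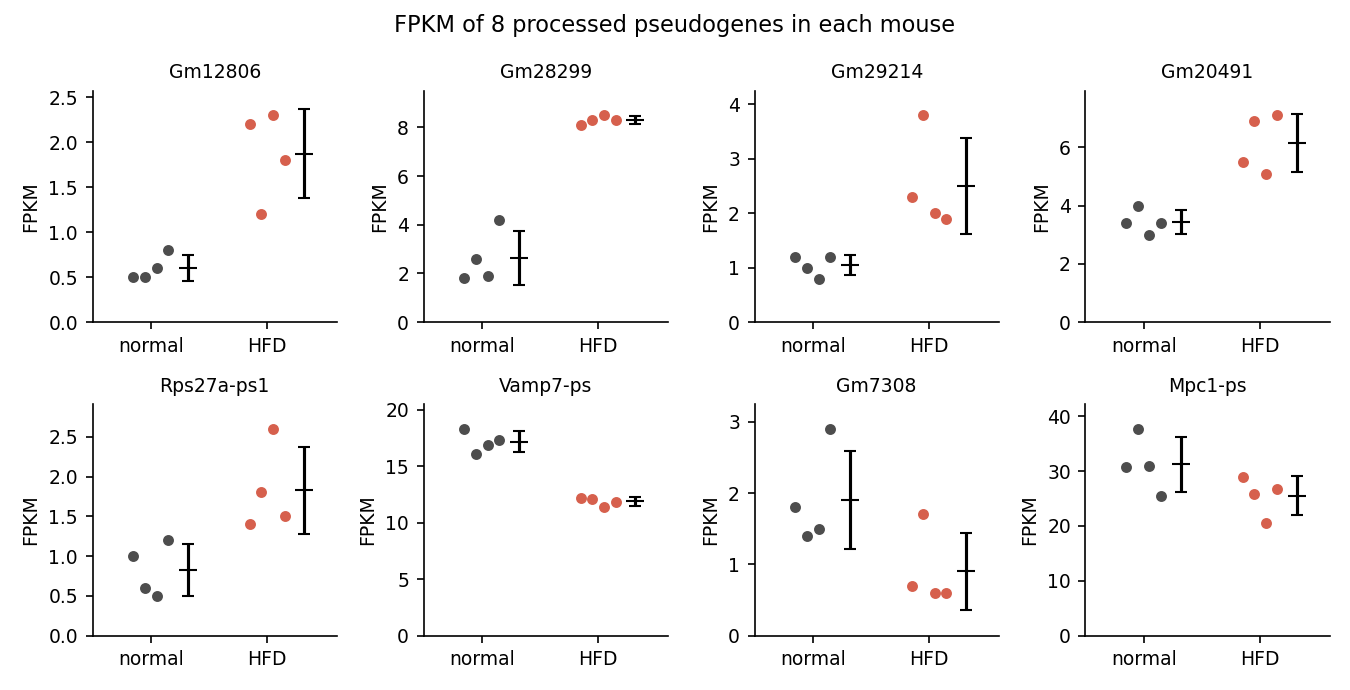
FPKM (vertical axes, from 0) of 8 pseudogenes in each normal and HFD mouse, with the mean and SD of 4 mice beside the points. Gm12806, Gm28299, Gm29214, Gm20491 and Rps27a-ps1 were higher on the high fat diet without overlap, Vamp7-ps was lower without overlap, Gm7308 was lower with overlap, and Mpc1-ps did not pass.

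Copies of mitochondrial and metabolic genes were next. Gm4660 (chr16:60397920-60398322, minus strand) copies Atp5g1, the gene of the membrane-embedded c subunit of ATP synthase, and lies in the ephrin receptor gene Epha6. It had 0.6, 1.2, 0.7 and 0.3 FPKM on the normal diet and 2.2, 1.4, 1.4 and 1.2 FPKM on the high fat diet, and the lowest HFD mouse equalled the highest normal mouse (log2 fold change 1.13 ± 0.34, adjusted p = 0.0295). Atp5g1 had 194 to 218 FPKM against 161 to 194 FPKM (adjusted p = 0.0884), and Epha6 had a log2 fold change of 0.25 (adjusted p = 0.165). Gm4660 was the 1 of 6 copies (16.7%) of respiratory chain and mitochondrial genes, grouped by symbol prefix, that was higher, a share near the 17.7% of all genes. The prefixes took in subunits of the respiratory complexes and mitochondrial ribosomal proteins and left out other mitochondrial genes such as Mpc1, Phb and Mdh2, and none of the 6 was lower, also at an unadjusted p below 0.05 by limma.

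1700071K01Rik (chr11:81572655-81573473) is a copy of Phb, the gene of prohibitin in the inner mitochondrial membrane, within the acid-sensing channel gene Asic2. Its level was 0.5 to 1.1 FPKM on the normal diet and 1.4 to 1.9 FPKM on the high fat diet (log2 fold change 1.03, adjusted p = 0.00739). Phb had a log2 fold change of -0.16 (adjusted p = 0.174), whereas Asic2 rose by 0.37 (adjusted p = 0.00902). Gm12369 (chr4:36003238-36004179), a copy of the mitochondrial malate dehydrogenase gene Mdh2 in Lingo2, had 0.8 to 1.9 against 2.0 to 2.8 FPKM (log2 fold change 0.82, adjusted p = 0.0225). With the cerebellar list as a covariate Gm12369 had a log2 fold change of 0.134 and did not pass (adjusted p = 0.852). Mdh2 had a log2 fold change of 0.01, whereas Lingo2 rose without overlap (log2 fold change 0.36, adjusted p = 0.0126).

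Gm20491, in a same-strand intron, was as similar to Eno1b as to Eno1, which encodes the glycolytic enzyme enolase. It had 3.4, 4.0, 3.0 and 3.4 FPKM on the normal diet and 5.5, 6.9, 5.1 and 7.1 FPKM on the high fat diet, without overlap (log2 fold change 0.81 ± 0.13, adjusted p = 0.00215). Eno1 had 258 to 279 FPKM against 253 to 276 FPKM (adjusted p = 0.299).

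Among copies of chromatin and RNA-binding genes, Gm8850 (chr1:155179801-155180388, plus strand) moved against its parent. It copies Hmgb3, a high mobility group gene, in an intron of the vesicle fusion gene Stx6, and had 0.4, 0.8, 0.9 and 0.5 FPKM on the normal diet and 1.2, 1.9, 1.2 and 1.4 FPKM on the high fat diet (log2 fold change 1.06 ± 0.26, adjusted p = 0.0136). Hmgb3 fell from 8.9 to 9.3 FPKM to 5.4 to 7.5 FPKM (log2 fold change -0.47, adjusted p = 0.00558), and Stx6 had a log2 fold change of 0.03. Of 7 copies of RNA-binding genes 1 (14.3%) was higher and 1 (14.3%) was lower, near the 17.7% and 15.3% of all genes. The higher one was Gm18955 in Rapgef5, with the parent Hnrnpa2b1 (log2 fold change 0.89, adjusted p = 0.0274), and the lower one was Gm7964. Rapgef5 rose as well, without overlap (log2 fold change 0.43, adjusted p = 0.00729). Gm11653 in Tanc2 copies Snupn, the import adaptor of spliceosomal ribonucleoproteins, and had 1.1 to 1.9 against 2.7 to 3.7 FPKM (log2 fold change 1.02, adjusted p = 0.00339), with Snupn at -0.03 and Tanc2 at 0.59.

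Gm18875 (chr1:123804540-123805421) copies Sparc, a gene of a secreted matrix-binding glycoprotein, within the potassium channel accessory gene Dpp10, and had 1.5 to 2.2 FPKM on the normal diet and 3.1 to 4.0 FPKM on the high fat diet (log2 fold change 0.90, adjusted p = 0.00221). Dpp10 rose too, by less (log2 fold change 0.20, adjusted p = 0.0318). Sparc had 66.5, 162, 172 and 77.5 FPKM in the normal mice and 57.5 to 71.9 FPKM in the HFD mice (log2 fold change -0.77, adjusted p = 0.0642), and normal mice 2 and 3, in which it was high, also had the highest sums of cerebellar markers, 281 and 377 FPKM. Gm43582 (chr3:104634315-104634657), a copy of the elongin C gene Eloc, had 0.6, 0.3, 0.9 and 0.5 FPKM against 3.6, 2.2, 0.6 and 1.6 FPKM, so HFD mouse 3 lay within the normal range (log2 fold change 1.48, adjusted p = 0.0383). Eloc fell by 0.21 on the log2 scale (adjusted p = 0.0119). Gm14769 in the dystrophin gene Dmd, a copy of Fam133b, had a log2 fold change of 1.21 and did not pass (adjusted p = 0.0824).

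Other pseudogenes that were higher are given more briefly. Those among them without a -ps symbol, and Gm20491, Gm12369, Gm18955 and Gm15459, are named because they passed and were chosen after their values were seen, except Gm14740. Gm14740, on chromosome X with no parent found, had 0.4 to 0.8 FPKM against 1.4 to 1.9 FPKM, without overlap (adjusted p = 0.0028). Gm15681 in Cdh8, a copy of the phosphatase 4 regulatory gene Ppp4r1, had a log2 fold change of 0.87, and Gm18212 in Rnf150, a copy of the zinc finger gene Zfp108, had 0.76. Gm15665 in Stxbp5l, with the focal adhesion gene Lims2 as its parent, had 0.61, and Gm11870 in Osgin2, a copy of the alpha-tubulin gene Tuba1a, had 0.54. Zcchc9-ps in Macrod2 had 0.73, Gpx2-ps1 in Pgm2l1 had 0.63, Fth-ps2, a copy of the ferritin heavy chain gene in Braf, had 0.53, and E530001F21Rik had 0.81. Adjusted p for these 8 lay between 0.0047 and 0.0413. Of their 7 hosts Rnf150 and Braf rose, by 0.21 and 0.19 on the log2 scale (adjusted p = 0.0478 and 0.0357), although Rnf150 had -0.005 with the cerebellar list as a covariate, and the other 5 passed in neither direction.

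Vamp7-ps (chr2:174046619-174047273, minus strand), named as a copy of a vesicle fusion gene, was the lower pseudogene with the smallest adjusted p. It had 18.3, 16.1, 16.9 and 17.3 FPKM on the normal diet and 12.2, 12.1, 11.4 and 11.8 FPKM on the high fat diet. The diets stood far apart relative to their spread (log2 fold change -0.53 ± 0.05, SE, n = 4 per diet, adjusted p = 0.000506), and the change was under 1.5-fold. It passed without each mouse in turn and with the cerebellar list as a covariate (log2 fold change -0.65, adjusted p = 0.0132). Another pseudogene that passed with that covariate was Gm8850, and these were the 2 of 29.

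The other 3 pseudogenes that were lower had parents that were lower as well. Gm7964 (chr7:83755904-83757281), a copy of the RNA-binding gene Hnrnpk, had 9.2 to 11.7 FPKM against 7.9 to 8.8 FPKM, without overlap (log2 fold change -0.33, adjusted p = 0.015), and Hnrnpk fell by 0.21 on the log2 scale (adjusted p = 0.00491). Gm15459 (chr5:5781615-5783555), a copy of the heat shock cognate gene Hspa8, had a log2 fold change of -0.30, as did Hspa8 (adjusted p = 0.0379 and 0.0119). Gm7308 (chr6:127282063-127282509), a copy of the calmodulin gene Calm2, had 1.8, 1.4, 1.5 and 2.9 FPKM against 0.7, 1.7, 0.6 and 0.6 FPKM, so HFD mouse 2 lay within the normal range (log2 fold change -1.07 ± 0.34, adjusted p = 0.0355), and it was the only pseudogene lower by over 1.5-fold. Calm2 fell from 1183 to 1402 FPKM to 960 to 1030 FPKM (log2 fold change -0.38, adjusted p = 0.00411), and with quantile normalization it did not pass (-0.16, adjusted p = 0.086). With the cerebellar list as a covariate none of these 3 pseudogenes passed. Gm7964 had -0.106 (adjusted p = 0.675), Gm15459 had -0.479 (adjusted p = 0.132) and Gm7308 had -1.411 (adjusted p = 0.217).

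Sequence shared with coding transcripts sets how well reads can be placed. Of all 100-base windows of a pseudogene, the share found unchanged in a transcript of a protein-coding gene was 0 for 69 of 86 pseudogenes in same-strand introns and for 20 of 46 without an overlapping gene. It was 50% or more for 2 of 86 and 12 of 46. It was 53% for Gm7964 and 73% for Gm15459, 82% for Mpc1-ps, 74% for Gm13509 and 100% for 5 pseudogenes, Tpt1-ps3, Rps23-ps1, Rpl10a-ps1, Ptges3-ps and Gm7536. For such pseudogenes reads of the copy and of the parent cannot be told apart over most of the length, and no source used here says how reads with several matches were counted. Of the 25 pseudogenes that were higher, 22 had no such window, against 92 of all 143 pseudogenes. In same-strand introns 19 of the 21 that were higher had none, against 69 of all 86 there. Where no other gene overlapped, 3 of the 4 that were higher had none, against 20 of all 46 there. These differences were not tested. Tpt1-ps3 had 4.8, 2.3, 4.4 and 4.2 FPKM against 2.6, 2.9, 2.2 and 2.8 FPKM and did not pass (adjusted p = 0.0839), while Tpt1 fell by 0.21 (adjusted p = 0.0096).

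The pseudogenes were also divided by identity to the parent, and differences between the divisions were not tested. The counts include the pseudogenes that met the entry condition only through the high fat diet. With identity under 85% 15 of 42 pseudogenes (35.7%) were higher, with 85 to 95% 6 of 40 (15%), and with 95% or more 3 of 59 (5.08%), against 17.7% of all genes, so the share in the middle division was near that of all genes. These divisions had 0, 0 and 3 that were lower by limma with adjustment, against 15.3% of all genes, and 1, 1 and 6 at an unadjusted p below 0.05, with median log2 fold changes of 0.51, 0.36 and 0.04. Within the introns 14 of 32 (43.8%), 5 of 31 (16.1%) and 2 of 23 (8.70%) were higher, and the medians were 0.54, 0.47 and 0.39. Where no other gene overlapped, 1 of 7 (14.3%), 1 of 9 (11.1%) and 1 of 28 (3.57%) were higher, and none of the 3 medians exceeded 0.13. Across 141 pseudogenes Spearman's rho between identity and log2 fold change was -0.29. The median identity was 90.3% in same-strand introns and 96.7% where no other gene overlapped. A reading frame at least 90% as long as the coding sequence of the parent was present in 20 pseudogenes, 6 in same-strand introns and 8 without an overlapping gene.

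**Figure D4:**
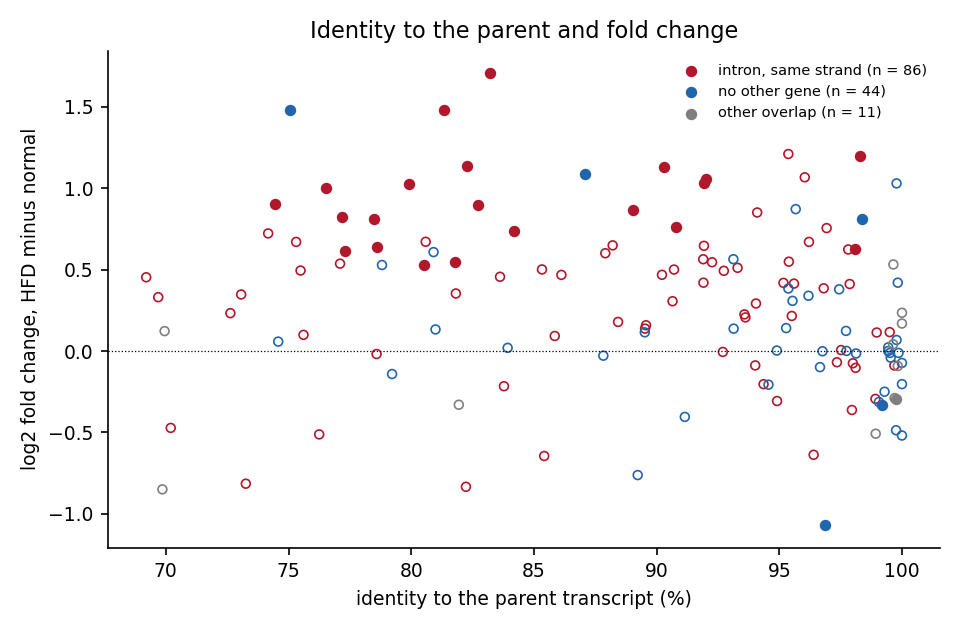
Identity to the parent transcript (percent, horizontal axis) and log2 fold change (HFD minus normal, vertical axis) of the 141 pseudogenes with a parent, coloured by position. Filled points have an adjusted p below 0.05, and 3 of the 59 pseudogenes at 95% identity or more were higher against 15 of the 42 under 85%.

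Of 117 parent genes 7 (5.98%) were higher and 34 (29.1%) were lower, against 17.7% and 15.3% of all genes, with a median log2 fold change of -0.09. Of those that passed, 1 changed by over 1.5-fold. Of the 21 higher pseudogenes with a measured parent, the parent was higher for 1, lower for 2 and passed in neither direction for 18. Across 132 pairs Spearman's rho of the 2 log2 fold changes was 0.13. It was 0.06 over the 81 pairs in same-strand introns and 0.46 over the 41 pairs without an overlapping gene. It was 0.08 over the 84 pairs that share no 100-base window with a coding transcript and 0.56 over the 22 pairs that share at least 50% of them. All points come from the same 8 mice, and some pairs share a parent.

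The ratio of a pseudogene to its parent did not overlap between the diets in 21 of 132 pairs (15.9%), all with a higher ratio on the high fat diet, against 17.2% of all single genes without overlap in that direction and 14.7% in the other. The exact permutation p, two-sided over 70 assignments, was 0.0286 for each of these, its smallest value. Among the 21, Gm12806, Gm4660, Gm8850, 1700071K01Rik, Gm15681 and Rps27a-ps1 met the entry condition only through the high fat diet. That condition favours a higher ratio on that diet, so for them the p and the direction of the ratio are no test. The largest change in the ratio among them was that of Gm28299 to Btf3, whose log2 ratio rose by 1.81, followed by Gm18875 to Sparc with 1.67 and Gm8850 to Hmgb3 with 1.53. In the pair of Gm28299 the parent differed little (-0.10), whereas Sparc (-0.77) and Hmgb3 (-0.47) add to the change of their ratios. Of the 21 pseudogenes 16 passed themselves. The count was 34 without normal mouse 1 and 33 without HFD mouse 3, where fewer values have to stand apart.

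Of 78 hosts 37 were higher (47.4%) and 7 were lower (8.97%), against 17.7% and 15.3% of all genes, with a median log2 fold change of 0.18. Of the 21 higher pseudogenes in same-strand introns the host was higher for 11 and passed in neither direction for 10, and the host changed by over 1.5-fold for 3. Across 84 pairs Spearman's rho of the log2 fold changes was 0.24 and Pearson's r was 0.34. The log2 fold change of the pseudogene exceeded that of the host in 63 of 84 pairs. The ratio of pseudogene to host did not overlap between the diets in 11 pairs with a higher ratio (13.1%) and 1 with a lower ratio (1.19%), both below the 17.2% and 14.7% of all single genes without overlap. Gm15681, Gm4705, Gm8850, Gm4017 and Gm17971 are among the 11, and they met the entry condition only through the high fat diet. That condition favours a higher ratio on that diet, so for them the direction of the ratio is no test. The pair with the lower ratio was that of Gm13509, where Mbd5 rose by 0.39 (adjusted p = 0.00124) and the pseudogene had -0.09. Host values count exons, whereas the pseudogene lies in an intron, so the values come from different stretches of the same locus.

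**Figure D5:**
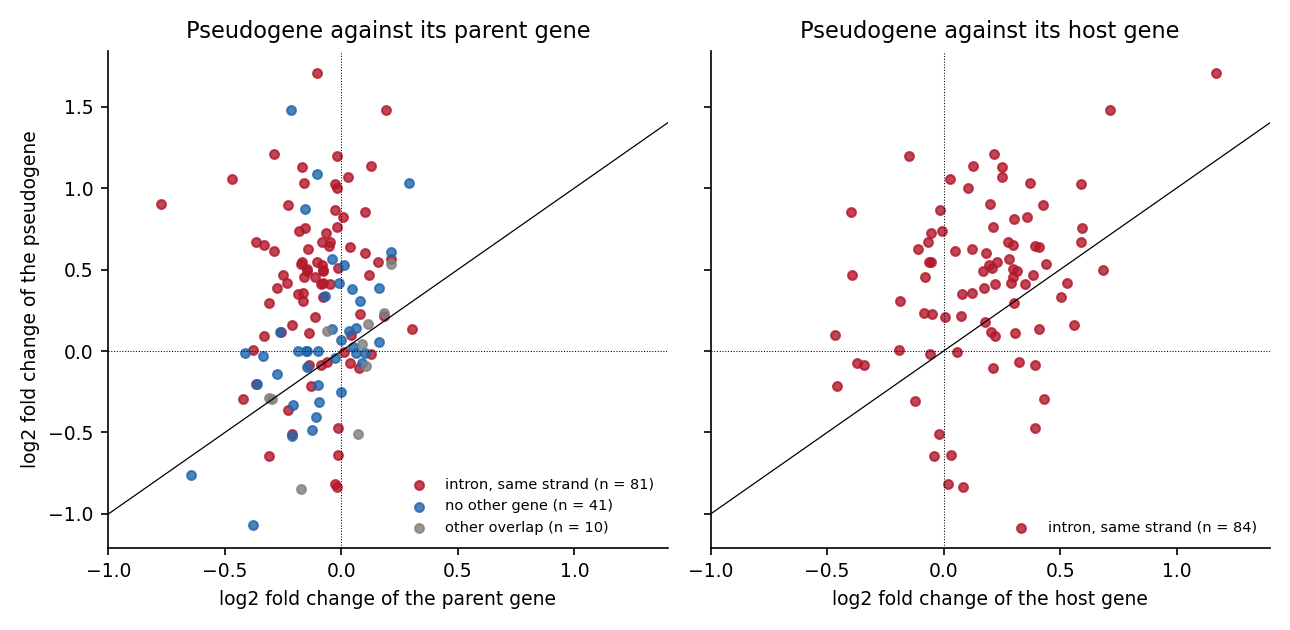
Log2 fold change of each pseudogene (vertical axis) against that of its parent gene (left, 132 pairs) and its host gene (right, 84 pairs), coloured by position, with the line of equal change. In the right panel 63 of the 84 points lie above the line.

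The calls differed in how far they rested on single mice. Of the 29 pseudogenes that passed, 17 passed without each of the 8 mice in turn. Among the others, Gm18212 was lost without HFD mouse 2 (adjusted p = 0.0509), and Gm12369 without HFD mouse 1 or 2 (up to 0.0653). Gm4705 was lost without normal mouse 2 or HFD mouse 2, 3 or 4 (up to 0.12). Gm4660 was lost without normal mouse 1 or 3 or HFD mouse 1, 2 or 3 (up to 0.0808), and Gm18955 without normal mouse 1 or 3 or HFD mouse 1, 2 or 4 (up to 0.0682). E530001F21Rik was lost without normal mouse 1 or 2 or HFD mouse 1, 2 or 4 (up to 0.0904), and Gm47340 without normal mouse 2 or 4 or HFD mouse 1, 2 or 4 (up to 0.0918). Gm43582 was lost without normal mouse 1, 2 or 4 or HFD mouse 1, 2 or 4 (up to 0.0982), and Fth-ps2 without normal mouse 1, 2 or 4 or HFD mouse 1, 3 or 4 (up to 0.104). Among those that were lower, Gm7308 was lost without normal mouse 1 or 4 or HFD mouse 1, 3 or 4 (up to 0.0874), and Gm15459 was kept only without normal mouse 3 (up to 0.0846 otherwise). With quantile normalization Gm4705 (adjusted p = 0.0716) and Fth-ps2 (0.053) were also lost, and with no variance trend in limma Gm4705 (0.0571), Gm43582 (0.0519) and Gm47340 (0.0506). The direction of all 29 stayed the same when any 1 mouse was left out, which their choice in the same 8 mice favours. Of their hosts, Nav3 was lost without normal mouse 2 or HFD mouse 2 (up to 0.0558), Dpp10 without normal mouse 1, 2 or 3 or HFD mouse 2 or 4 (up to 0.0888), Braf without normal mouse 2 or 3 or HFD mouse 2, 3 or 4 (up to 0.0913), and Rnf150 was kept only without normal mouse 1 or 4 (up to 0.122 otherwise). Dpp10 (0.0542), Braf (0.0542) and Rnf150 (0.0584) were also lost with no variance trend, and Rnf150 with median-ratio rescaling (0.0523) or quantile normalization (0.0611).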

How the data were processed

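RNA sequencing of 4 normal and 4 HFD cortexes was done by the authors from rRNA-depleted total RNA, and the deposited FPKM values came from Cuffnorm with GENCODE M17, after quality control by FastQC, trimming by Trimmomatic and alignment to mm10 by STAR. No source used here gives the versions. The deposited values are rounded to 0.1 and already scaled by depth and length, so depth per mouse is unknown and no counting interval can be given.

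From them, log2(FPKM + 0.1) was tested with limma 3.58.1 in R 4.3.3 (variance trend, two-sided, Benjamini-Hochberg over 13982 genes with a mean of at least 1 and no 0), and a called gene had an adjusted p below 0.05, with over 1.5-fold where stated. On data simulated over 13982 genes, the test recovered 89 of 100 genes changed 2-fold, 70 of 100 changed 1.5-fold, and called 13 unchanged genes. Parents were found with blastn 2.17.0 (plus strand, E-value 1e-10, at least 50% of the pseudogene aligned, ties within 2% of the bit score) against GENCODE M21 transcripts on GRCm38, and 142 of 143 identifiers had the same version there. Ratios and permutation tests were computed with scipy 1.17.1, pandas 2.3.3 and numpy 2.4.6 under Python 3.11.15.

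Genes were named by a rule: the 12 largest called changes each way, the 10 highest means, the -ps symbols, the 5 pairs farthest apart each way, the 5 pairs of highest identity, members of parents shared by at least 3 pseudogenes (none was), and their parents and hosts. Further pseudogenes that passed were named outside the rule, after their values were seen. Gm4017 and Gm17971 were named for the entry condition. Parent groups were set by symbol prefix. The members, lists and rules were chosen with earlier results of these data known. Alternatives were other added constants and filters, median-ratio rescaling, quantile normalization, no trend, a replicate block, a cerebellar covariate, other minimum changes and each mouse left out. A second quantification that the authors made was not used here. The results of a few genes are not reported here.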

Additional observations from a re-analysis of the deposited data

Results flagged for a closer look

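In 5 of 82 groups of 4 mice, over 41 pseudogenes that the naming rule gave, 1 mouse stood far from the other 3 by Dixon's criterion, and chance gives about 5%. Normal mouse 2 had 1.0 FPKM of Rpl14-ps1 against 1.3 in the others. HFD mouse 2 had 1.7 FPKM of Gm7308 against 0.6 to 0.7. HFD mouse 3 had 1.2 FPKM of Rpl3-ps1 against 1.5. Normal mouse 4 had 0.2 FPKM of Gm4705 against 0.8 to 0.9. Normal mouse 1 had 3.3 FPKM of Gm47504 against 0.8 to 0.9. Values of this size rest on 1 or 2 digits.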

How the results depend on the processing

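The 23 pseudogenes higher by over 1.5-fold became 12 with an added constant of 1, 6 among genes with a mean of at least 2 FPKM and 1 with the cerebellar covariate. Leaving out 1 mouse gave 15 to 27. Leaving out pseudogenes with a mean under 1 FPKM in either diet, chosen after seeing the data, gave 13. The single pseudogene that was lower, Gm7308, became 0 with a mean of at least 2 FPKM, with the replicate block and without members under 1 FPKM in either diet, 2 with quantile normalization or a 1.4-fold minimum, and 4 with no minimum change, and leaving out 1 mouse gave 0 to 3. With the cerebellar covariate the count was also 1, but it was Vamp7-ps, and Gm7308 did not pass. Ratios to the parent without overlap were 6 of 81 pairs at 80% aligned and 90% identity, 8 of 44 pairs with means of at least 2 FPKM, and 25 to 34 without 1 mouse. The causes of these moves were not tested, other than fewer genes or pairs entering the stricter filters. Other settings kept these counts within 1.5 times. With the covariate the direction turned for Clpb (-0.017), Nav3 (-0.046) and Rnf150 (-0.005), 3 hosts. The replicate number is only a name: same-numbered mice had correlations of -0.11 to -0.03 between their deviations, and the block gave 18 higher and kept 23 of the 29 calls. Depth is unknown, and values near 1 FPKM carry 1 or 2 digits.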
